A study of Mus musculus with 4 samples.

Results

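The SLAM receptors are a family of immunoglobulin-type surface proteins of lymphocytes. Of their genes, 6 described here lie side by side on mouse chromosome 1, and the adaptor that serves them, SAP, is encoded by Sh2d1a on chromosome X. Acetylation of histone H3 at lysine 27 (H3K27ac), a mark of promoters and enhancers in use, was mapped by ChIP-seq in cultured Th17 cells of the mouse, which are helper T cells that make IL-17. The genes described are Ly9, Slamf7, Cd48, Slamf1, Cd84, Slamf6 and Sh2d1a, 7 in all. Their peaks were chosen by position alone, as every peak that overlapped a member gene or the 20 kb on each side of it (GRCm38). This gave 48 peaks of the 56285 in the deposited list, 41 on chromosome 1 and 7 on chromosome X.

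The cells were naive CD4+ T cells of C57BL/6 mice kept for 72 h under Th17 conditions, which the labels give as antibodies to CD3ε (0.25 µg/mL) and CD28 (1 µg/mL) together with the cytokines TGF-β (0.1 ng/mL) and IL-6 (20 ng/mL). For TGF-β the growth protocol names a wider span of doses. Each of 2 biological replicates gave an H3K27ac library and a library of its input DNA. All libraries share this 1 culture condition, so the study holds no other cell state to compare with. The peak names carry the tag WT_Ddx5, which the sample labels do not explain. The list gives 1 position per peak and no height, fold enrichment or value per library, so no value below has a replicate error and the read depth is unknown. A peak called in a bulk culture does not tell how many of the cells carried the mark. Tests across genes were not made, since the 7 members are not replicates and 6 of them are neighbours; their values stand beside the same values over 21631 protein-coding genes.

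Most SLAM receptors bind a second copy of themselves on the neighbouring cell, so that T cells and their partners signal to each other in the same way. The tails of the signalling members carry tyrosine motifs that recruit SAP, and SAP brings the kinase Fyn to the receptor. In T cells this pathway is known for the help given to B cells, for the growth of natural killer T cells and for early cytokine output after T cell receptor contact. Loss of SAP causes X-linked lymphoproliferative disease in humans. Cd48 differs from the others: it encodes a lipid-anchored protein without a signalling tail that binds CD2 and CD244.

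The promoters of 3 members are shown because they cover the range found. Slamf1 starts under the widest peak of the cluster, Slamf7 under a narrower one of 2114 bp, and no peak covers the start of Cd84. Each promoter is the RefSeq sequence of GRCm38.p6 from 250 bp before to 50 bp after the start. It is read 5′ to 3′ in the direction of transcription, and capitals mark every match to a motif named below. The Slamf1 promoter is chr1:171766882-171767181 on the plus strand, the Slamf7 promoter is chr1:171648950-171649249 on the minus strand, and the Cd84 promoter is chr1:171839447-171839746 on the plus strand.
Slamf1: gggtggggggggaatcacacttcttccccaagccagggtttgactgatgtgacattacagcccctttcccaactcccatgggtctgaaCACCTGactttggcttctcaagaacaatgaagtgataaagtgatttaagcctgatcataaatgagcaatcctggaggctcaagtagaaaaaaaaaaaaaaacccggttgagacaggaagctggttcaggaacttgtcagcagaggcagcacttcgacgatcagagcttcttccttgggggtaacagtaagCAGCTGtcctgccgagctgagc
Slamf7: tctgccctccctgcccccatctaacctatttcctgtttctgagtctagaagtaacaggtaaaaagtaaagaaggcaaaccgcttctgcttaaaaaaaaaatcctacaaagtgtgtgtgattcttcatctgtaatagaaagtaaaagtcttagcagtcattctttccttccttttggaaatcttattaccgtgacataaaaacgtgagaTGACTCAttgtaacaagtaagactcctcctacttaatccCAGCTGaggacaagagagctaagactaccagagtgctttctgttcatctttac
Cd84: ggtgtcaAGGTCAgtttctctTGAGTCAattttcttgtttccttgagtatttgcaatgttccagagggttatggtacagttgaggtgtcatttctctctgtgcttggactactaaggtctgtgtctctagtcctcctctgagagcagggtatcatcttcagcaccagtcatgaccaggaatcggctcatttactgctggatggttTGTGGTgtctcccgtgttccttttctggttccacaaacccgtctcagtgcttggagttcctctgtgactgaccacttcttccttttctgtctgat

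All 7 members had a peak within 1000 bp of an annotated start, against 54.2% of protein-coding genes. RefSeq promoters gave the start and strand of 5 members. Ly9 and Sh2d1a were not in the promoter table, so either end of the gene counted for them, as for other genes without an entry. The 5 member promoters in the table held 1 to 7 CpG in 300 bp, with 1 in Slamf6, 3 in Slamf7, 3 in Cd84, 4 in Slamf1 and 7 in Cd48. The median over 32619 promoters was 7, so 4 of the 5 lay below it and Cd48 lay on it. Of the promoters of protein-coding genes at or below that median, 16.5% had a peak within 1000 bp of the start. All 5 member promoters belonged to this class and all 5 had one. Peaks covered all 300 bp of the promoters of Slamf7, Cd48, Slamf1 and Slamf6 and 0 bp of that of Cd84; 51.4% of all promoters of protein-coding genes, and 12.5% of those in this class, were overlapped by a peak.

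Short motifs of T cell transcription factors were searched on both strands of these 5 promoters. The AP-1 motif TGANTCA matched in Slamf7, at 42 bp before the start, and in Cd84, at 229 bp before it, and was found in 7.85% of all promoters. The RUNX motif TGTGGT matched in Cd48 and Cd84 (16.6% of all promoters). The E-box CAGCTG matched in Slamf7 and Slamf1 (16.4%), and the E-box CAGGTG in Slamf1 (20.3%). The ETS motif CCGGAA and the TCF/LEF motif TCAAAG matched in Cd48 (15.0% and 16.0%), and the ROR motif AGGTCA in Cd84 (16.2%). No matches in these 5 windows overlapped each other. The STAT motif TTCNNNGAA, the IRF and NF-kB motifs, the GATA motif AGATAA, the CRE TGACGTCA, the GC box GGGCGG and the TATA box TATAAA matched in none of the 5. Of these, the GC box was the most common elsewhere, in 35.9% of all promoters. The Slamf6 promoter held no match to any motif searched. A match is a description of the letters and not evidence of binding.

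**Figure D1:**
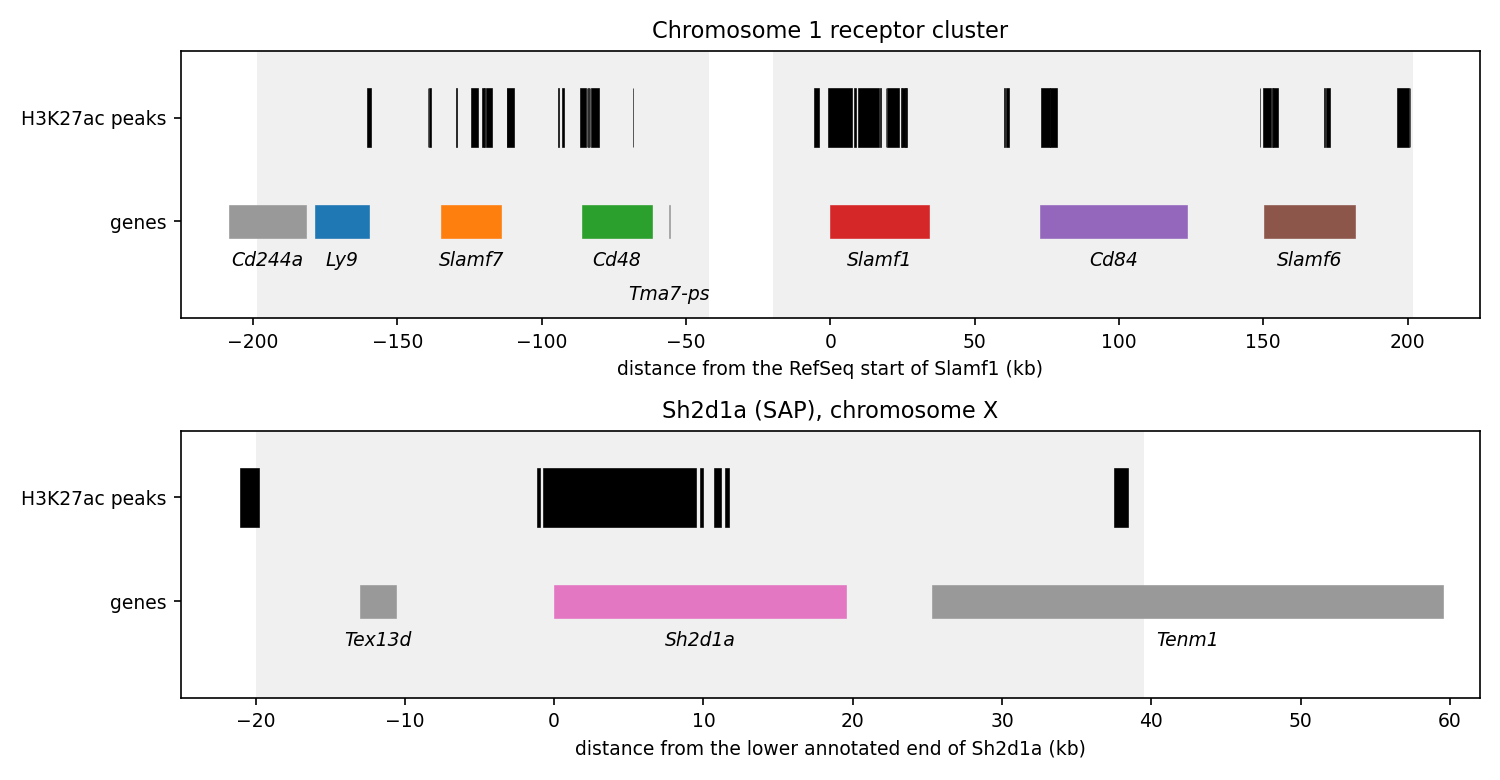
Map of the chromosome 1 receptor cluster (top) and of Sh2d1a (bottom), with the H3K27ac peaks of the member windows as black bars above the genes (outlined, so that narrow ones show) and distance in kb along the x axis. Grey shading marks the member genes with 20 kb on each side; other protein-coding genes are grey, and Tenm1 runs on past the plotted part. The largest length under peaks lies at Slamf1, which had 11 peaks, and Ly9 has 1 peak.

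The members differed widely in how much of them was acetylated. The length under peaks, counted in the gene and 20 kb on each side, ran from 1389 bp at Ly9 to 24914 bp at Slamf1. The median over the 7 members was 9033 bp, beside 2399 bp over all protein-coding genes, and 6 of the 7 lay above the latter. As a share of the window, the order was Slamf1 (33.6%), Sh2d1a (20.9%), Slamf6 (15.8%), Slamf7 (14.9%), Cd48 (10.4%), Cd84 (7.41%) and Ly9 (2.36%). The median share of all genes was 3.23%. This order depends on the flank. With 5 kb flanks it was Slamf1 (54.7%), Sh2d1a (38.3%), Slamf7 (28.7%), Cd48 and Slamf6 (both 16.5%), Cd84 (8.86%) and Ly9 (4.82%). With 50 kb flanks it was Slamf1 (23.6%), Slamf7 (13.95%), Sh2d1a (12.5%), Slamf6 (12.2%), Cd48 (11.9%), Cd84 (10.9%) and Ly9 (8.51%). Slamf1 was first and Ly9 last with each of the 3 flanks, while Slamf7 stood above Slamf6 with 5 and 50 kb. Without replicate values it cannot be said which neighbours in this order differ beyond error. Joined where they overlap, the 7 windows spanned 438007 bp, and 16.5% of this was under peaks. Of the annotated span of chromosomes 1 to 19 and X, 2.47% was under peaks. That span, unlike the windows, also takes in sequence far from any gene.

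**Figure D2:**
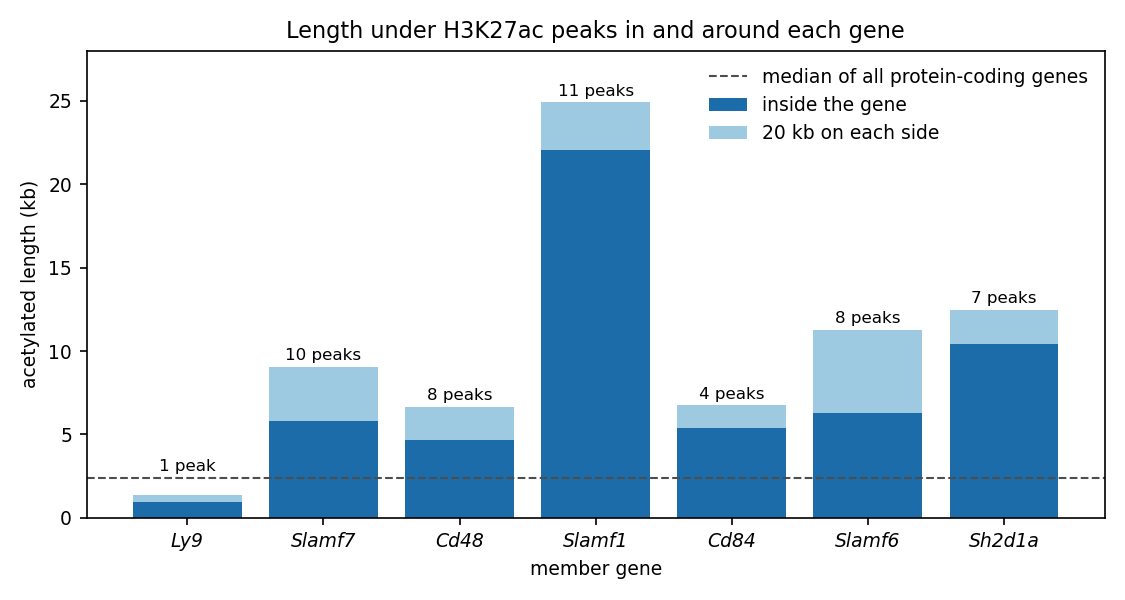
Length under H3K27ac peaks for each member gene in kb, stacked as the part inside the gene (dark) and the part in the 20 kb on each side (light), with the number of peaks above each bar. The dashed line is the median of all protein-coding genes, 2399 bp; Ly9 is the 1 member under it.

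Slamf1 encodes SLAM itself (CD150), a receptor that binds itself and signals through SAP. It was the most heavily marked receptor of the cluster. The gene (chromosome 1, 171767131 to 171801184, GRCm38) had 11 peaks in its window and 22040 acetylated bp inside it, 64.7% of its length, and 97.3% of protein-coding genes had a lower share of the gene under peaks. Its 3 widest peaks covered 20423 bp, or 82.0% of the acetylated length in the window. The first of these, 8571 bp wide (171766242 to 171774812), began 890 bp upstream of the start and ran 7680 bp into the gene. The second was 7585 bp wide (171776549 to 171784133) and the third 4267 bp (171786639 to 171790905), both inside the gene. By width, 99.2%, 99.0% and 96.3% of all peaks in the list were narrower than these 3, in that order. The last 7513 bp of the gene, 22.1% of it, lay in a stretch without peaks. Upstream stood 1 peak of 1985 bp, 3842 bp from the start.

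Slamf6 encodes Ly108, a receptor of the same kind that is abundant on T cells. The gene (171917458 to 171948958) had 8 peaks and 11285 acetylated bp in its window, of which 6283 bp (55.7%) lay inside the gene. That was the smallest inside share of the 7. Its start peak was 2876 bp wide and reached 370 bp upstream and 2505 bp downstream of the start, where the noncoding RNA gene Gm37065 also lies. After 16092 bp without peaks, a pair of 300 and 1403 bp followed deep in the gene. The widest peak of the Slamf6 window was outside it: 4329 bp (171963316 to 171967644), 14.4 kb beyond the upper end of Slamf6 and 33.3 kb short of the annotated lower end of Vangl2, in no annotated gene. Joined with its neighbours across gaps of up to 12.5 kb, it belonged to a group of 6 peaks that covered 9172 bp and ran out of the window to 171984845. The last peak of the window, 118 bp wide, lay 1030 bp inside its edge and the next one, 672 bp wide, 7232 bp outside. With 5 kb flanks, which leave both the 4329 bp and the 118 bp peak out, the acetylated length of Slamf6 was 6838 bp.

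Slamf7 encodes CRACC, a receptor known best from natural killer cells and plasma cells. In natural killer cells it pairs with the adaptor EAT-2. The gene (171632403 to 171653037) had 10 peaks in its window and 9033 acetylated bp, 5795 bp of it inside. Wide peaks of 2533 bp in the gene, 2114 bp at the start and 2248 bp upstream made up most of it. The upstream peak lay 6244 bp from the start and outside the gene. The start peak reached 810 bp upstream and 1303 bp downstream. The RefSeq start used for Slamf7 (171648999, minus strand) lies inside the annotated gene, and no peak touches the upper gene end. Upstream values for Slamf7 are counted from this start and so take in part of the annotated gene. The other 7 peaks were 134 to 550 bp wide.

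Cd48 (171681245 to 171705258) had 8 peaks and 6641 acetylated bp. Its start peak of 2249 bp lay mostly upstream of the RefSeq start, with 1687 bp before it and 561 bp after it. It is the only one of the 5 members with a known start whose start peak reached farther upstream than downstream. The RefSeq start used for Cd48 (171681992) lies inside the annotated gene, and both it and the lower gene end are under this peak. A second wide peak of 2725 bp followed in the gene, 2137 bp from the start. The remaining 6 peaks were 127 to 778 bp wide. One of them, 238 bp wide, lies between Slamf7 and Cd48 and counted for both, the only peak shared by a pair of member windows.

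Cd84 encodes a SLAM receptor that supports lasting contact between T and B cells. Its gene is the longest of the 7 (51022 bp, 171839697 to 171890718), and it had 4 peaks and 6741 acetylated bp in its window. A peak of 3143 bp began 315 bp downstream of the start, and one of 2266 bp followed it. Past these, the last 45179 bp of the gene, 88.5% of it, had no peak. Upstream, 975 bp and 357 bp peaks stood more than 10 kb from the start. The running numbers in the peak names skip 1 between the nearest upstream peak and the peak that follows the start; what a skipped number stood for is not given in the sources used here.

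Ly9 encodes CD229, another SLAM receptor that binds itself. It was the least marked member, with 1 peak of 1389 bp (171606486 to 171607874) over the higher-coordinate end of the gene (171588613 to 171607410). From its other end the nearest peak was 17873 bp away, and 95.1% of the gene lay in a stretch of 102012 bp without peaks. The next peak, which counts for Slamf7, lay 243 bp outside the Ly9 window. By acetylated length, 39.8% of protein-coding genes had less than Ly9. With 50 kb flanks its window takes in the peaks around Slamf7, and the count was 10 peaks with 10107 acetylated bp.

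**Figure D3:**
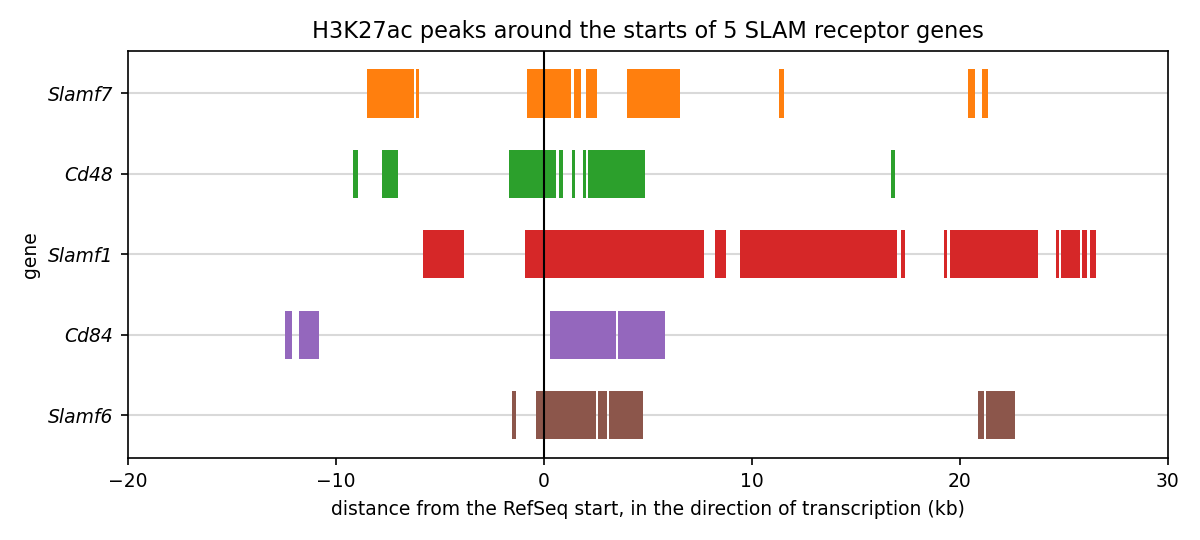
Peaks around the RefSeq starts of the 5 receptor genes with a known start, from 20 kb upstream to 30 kb downstream in the direction of transcription (x axis, kb); bars are peaks and the vertical line is the start. In 4 of the 5 the line passes through a peak, and in Cd84 the first peak begins 315 bp after it.

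In each of the 5 receptors with a known start, the 20 kb downstream held more acetylated length than the 20 kb upstream. Among 11485 genes with a known start and a peak within that distance, 58.1% had more downstream. The downstream and upstream lengths were 16657 and 2875 bp for Slamf1, 5409 and 1332 bp for Cd84, and 4985 and 3192 bp for Slamf7. They were 4576 and 559 bp for Slamf6 and 3938 and 2703 bp for Cd48. As a difference in bp the excess was largest at Slamf1, and relative to the upstream length it was largest at Slamf6; by either measure it was smallest at Cd48. Because several start peaks lean into the gene, their midpoints lay off the start. When a peak counted only if its midpoint was within 1000 bp, 3 of the 7 members kept a start peak, namely Ly9, Slamf7 and Cd48.

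Sh2d1a, which encodes the adaptor SAP, was marked by the widest peak of all 7 members. This peak was 10236 bp wide (chromosome X, 42501805 to 42512040), and 99.5% of all peaks in the list were narrower. It covered the lower-coordinate end of the gene (42502565 to 42522097), with 760 bp outside and 9475 bp inside. In all, 10403 bp or 53.3% of the gene was under peaks, and the other end was 7840 bp from the nearest peak. The window had 7 peaks and 12463 acetylated bp. A peak of 1229 bp at the outer edge of the window was cut by it, and the next one, 1512 bp wide, fell 1100 bp outside. Past the last peak in the window, which lies in Tenm1, came a stretch of 4.62 Mb without peaks that touched 6 protein-coding genes. It ranked 34 among the 56264 intervals between neighbouring peaks.

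**Figure D4:**
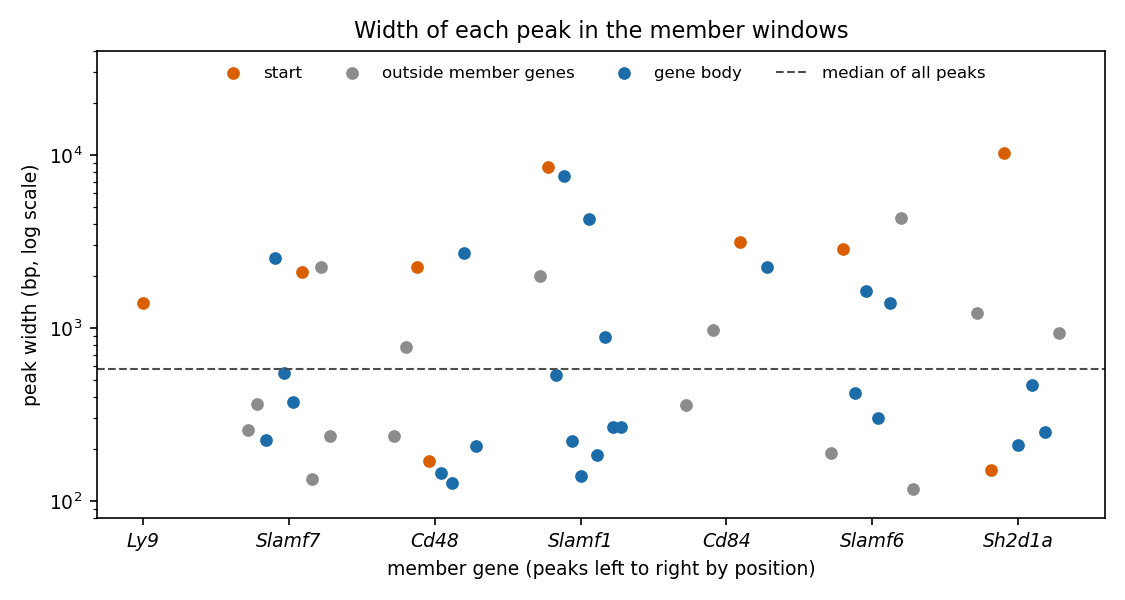
Width in bp (log scale) of every peak in each member window, ordered by position within a gene and coloured by place: at a start (orange), elsewhere in the member gene (blue) or outside member genes (grey); the peak shared by Slamf7 and Cd48 appears under both. The dashed line is the median of all peaks, 579 bp. The widest are the start peaks of Sh2d1a and Slamf1, at 10236 and 8571 bp.

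The 48 peaks were of very unequal width. Their median was 502 bp with a range of 118 to 10236 bp, beside a median of 579 bp over all 56284 peaks on chromosomes 1 to 19 and X. Peaks under 500 bp numbered 24, and held 7.90% of the length, while the 13 peaks of 2000 bp or more held 75.3%. In the whole list, 16.3% of peaks were at least 2000 bp wide and held 53.8% of the length. That list had 45.6% of its peaks under 500 bp, with 10.2% of the length, beside 24 of the 48 here. By place, 9 peaks lay at a start with a median of 2249 bp, 25 elsewhere in member genes with a median of 374 bp, and 14 outside member genes with a median of 571.5 bp. The start peaks made up 42.2% of the summed width. This split by place was not made for other genes, so it has no background value. Each member's widest start peak was also ranked among those of protein-coding genes with a start peak. The share of these genes with a narrower one was 32.5% for Ly9, 60.9% for Slamf7, 65.3% for Cd48 and 78.9% for Slamf6. It was 82.8% for Cd84, 98.0% for Slamf1 and 98.7% for Sh2d1a. Slamf1 and Sh2d1a together held 51.7% of the acetylated length of all 7 members.

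Along the chromosome 1 cluster, the peaks formed separate islands. Of the 40 intervals between its neighbouring peaks, 23 were at most 1000 bp, and the median was 600.0 bp. The longest were 70413 bp, from the body of Cd84 to just before Slamf6, and 62407 bp, from the end of Cd48 to just before Slamf1. These 2 ranked only 5170 and 5791 among the 56264 intervals between neighbouring peaks of the list, so intervals of such length are common in it. Stitching across gaps of up to 12.5 kb gave 1 group over each of Ly9, Slamf7, Cd48, Slamf1 and Cd84 and a pair over Slamf6. The group at Slamf1 covered 24914 bp over a span of 32366 bp and ranked 270 of 18748. It was the only one of these to pass the cut-off of 13241 bp that sets long acetylated domains apart, and 6.37% of protein-coding genes are overlapped by such a domain. The group at Sh2d1a covered 11315 bp and ranked 1048. With stitching at 5000 bp the cut-off was 10765 bp, and both Slamf1 and Sh2d1a passed.

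Of 3 other genes of the family, none had a peak at its start or inside the gene. Over all protein-coding genes 54.2% had a start peak, and the difference was not tested for so few genes. Cd244a, which borders Ly9 on chromosome 1 (171558718 to 171585316) and encodes 2B4, a receptor for CD48 on natural killer cells, had no peak in the gene or within 20 kb. Slamf8 and Slamf9, family genes of myeloid cells farther along chromosome 1, had 568 acetylated bp in 1 peak and 979 bp in 4 peaks in their windows, all of it outside the genes and less than the 2399 bp median of all genes. Cd2, whose product binds CD48 on mouse T cells, had 27833 acetylated bp in 10 peaks and a peak of 17121 bp at an annotated end.

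Start peaks were also counted at adaptors, kinases and other signalling genes of the pathway. The list of adaptors and tail-binding proteins held 7 genes, of which 5 had a start peak: Fyn (40393 acetylated bp), Lck (22862 bp), Ptpn6 (25410 bp), Ptpn11 (9661 bp) and Inpp5d (11656 bp). The 2 without one were Sh2d1b1 and Sh2d1b2, the genes of EAT-2 and its relative ERT, adaptors known from natural killer cells. Sh2d1b1 had 0 peaks in its window and Sh2d1b2 had 2, outside the gene. Among 10 genes of downstream signalling, 9 had a start peak, and the exception was Grap2, which had 41367 acetylated bp without a peak at its start. Prkcq, which encodes the kinase PKC-θ that SAP and Fyn engage, had 98018 bp in 43 peaks. In all, 15 of the 21 other pathway genes had a start peak, beside 54.2% of protein-coding genes, and this difference was not tested. A long domain overlapped 6 of the 21, beside 6.37% of protein-coding genes: Fyn, Lck, Ptpn6, Prkcq, Grap2 and Cd2.

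**Figure D5:**
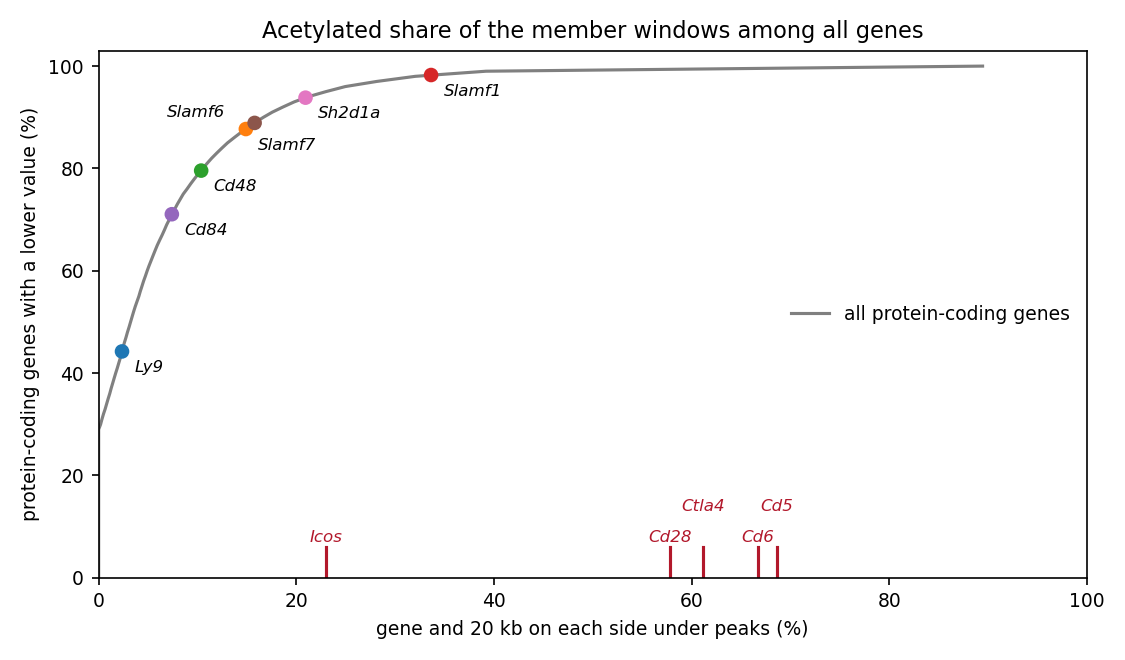
Share of each member window under peaks (x axis, %) against the share of protein-coding genes with a lower value (y axis, %). The grey line is the distribution over all protein-coding genes. Red ticks mark the windows of other genes of T cell surface receptors (Cd28, Ctla4, Icos, Cd5 and Cd6). Slamf1 stands at 33.6% of its window with 98.3% of genes lower, and Ly9 at 2.36% with 44.2% lower.

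The SLAM cluster as a whole had a smaller part of its windows under peaks than a pair of other loci of T cell surface receptors. The 3 windows of Cd28, Ctla4 and Icos, which encode costimulatory and inhibitory receptors of one family, held 31 peaks that covered 44.3% of their joint length, and the windows of Cd5 and Cd6 held 33 peaks that covered 67.5%. The SLAM cluster on chromosome 1 held 41 peaks that covered 15.8%. Single genes did not all follow this order: the share at Slamf1 (33.6%) was above those of Icos (23.0%) and of the T cell markers Cd3e (31.3%) and Cd4 (29.9%). All 5 genes of those loci were overlapped by a long domain, beside 1 of the 7 members and 6.37% of protein-coding genes. The widest peaks there were 35873 bp at Cd28 and 26977 bp at Cd5. These are values of single loci and the differences were not tested.

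The labelled cell type was checked on its markers. All 9 T cell and Th17 markers (Cd3e, Cd3d, Cd4, Cd28, Lck, Il17a, Il17f, Il23r and Ccr6) had a start peak, with 14063 to 38735 acetylated bp in their windows. Of 5 B cell markers none had a start peak, and of 5 myeloid markers 1 did (Cd14). Of 4 natural killer and innate lymphoid markers 1 did (Eomes, with a peak of 145 bp). Over all protein-coding genes, 54.2% had a start peak. Ms4a1, Blk, Adgre1, Lyz2, Ncr1 and Klra8 had no peak in their windows. Other markers of these lists had peaks: the window of the B cell marker Cd79a held 14881 acetylated bp in 8 peaks, within the range of the T cell markers, and a long domain overlapped the gene, with 687 bp of peaks inside it. The myeloid markers Cd14 and Itgam had 9186 bp in 8 peaks and 4439 bp in 6, and the natural killer marker Klrb1c had 2779 bp in 6, none of it inside the gene. The part of other cells in the marks at Slamf7 and Cd48, which such cells also use, was not tested.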

How the data were processed

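H3K27ac ChIP-seq peaks of cultured Th17 cells came as 1 list for 2 IP and 2 input libraries. Bowtie2 2.3.4.1, SAMtools 1.9, MACS2 2.2.6, deepTools and the build GRCm38 (mm10) are named per the submitters' processing notes, and MACS was run with the input DNA of both replicates, per the design text. The threshold, any filter and any pooling are not given in these sources, so peaks cannot be graded. The authors deposited chromosome, start, end and a name per peak, with no other value. Names are numbered up to 71449 for 56285 peaks, and 15164 numbers (21.2%) have none here, 5 of 46 in the chromosome 1 cluster.

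Starts were taken as counted from 0, since the narrowest peaks are then exactly 100 bp (788 peaks), and are printed counted from 1. Peaks on chromosomes 1 to 19 and X were used. Genes and promoters are from RefSeq tables of GRCm38.p6. Of 21631 protein-coding genes, 17274 have a start in the promoter table, and either annotated end was used for the others. The 21631 include genes listed near the lower end of chromosome 1, such as Csprs and Ren2, without a peak. Whether these positions lie on the assembled chromosome was not checked, and the genes count in the background. Overlap means at least 1 bp, and window lengths are clipped to the window. Domains are stitched groups above the point where the scaled curve of ranked covered length has a slope of 1. Overlap code was checked on simulated peaks against a direct count. No test was run. Named genes are the members, the genes overlapping their windows, the pathway and marker lists and the compared loci. Members and lists were chosen with earlier results of these data known. Alternatives were flanks of 5 and 50 kb, start windows of 500 and 2500 bp, the peak midpoint, merging of peaks at most 1000 bp apart, peaks of at least 500 bp, and stitching at 5000 bp. The work used Python 3.11.15 with pandas 2.3.3 and numpy 2.4.6, scipy 1.17.1 for intervals, and figures by matplotlib 3.10.9.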

Additional observations from a re-analysis of the deposited data

How the results depend on the processing

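A value counts here as moved when it changed by more than 1.5 times, or, for a number of genes, when it left its exact 95% binomial interval. Of 29 alternative values of the main results, 23 did not move. The binomial interval treats genes as independent draws, which neighbouring members are not, and it is wide for 7 genes. Members in a long domain went from 1 to 2 with stitching at 5000 bp, which counted as not moved. The median number of peaks per member window, 8, became 15 with 50 kb flanks, 3 with peaks merged at most 1000 bp apart and 3 with peaks of at least 500 bp. The median acetylated length became 16010 bp with 50 kb flanks, and the chromosome 1 cluster had 21 peaks of at least 500 bp. Members with a start peak numbered 7 under every setting except the peak midpoint, where there were 3. Flanks of 50 kb reach the neighbouring members, merging joins neighbouring peaks of any width into 1 and so lowers the count, and the width limit removes narrow peaks. The values for single members were peak counts, acetylated lengths and shares of the window, without the start-peak calls. Here the midpoint setting was applied to the peak counts only. Under it Slamf1, Cd84, Slamf6 and Sh2d1a had no start peak, which is not among these values. Of 77 values for single members, 28 moved, none of them under the midpoint setting. Among these were the shares of the window at Slamf1, Slamf7 and Cd48 with 5 kb flanks and at Sh2d1a and Ly9 with 5 and 50 kb flanks, given above with the order of the members. No paired analysis was possible because the result comes from no test and the list holds no value per library. Leaving out a replicate could not be run for the same reason. Read depth is unknown, so a gene without a peak is only a gene without a call in this list.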
